A study of Mus musculus with 12 samples.

Results

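The Tsc22d family comprises 4 genes, Tsc22d1, Tsc22d2, Tsc22d3 and Tsc22d4. They were followed here with all 15 probe sets, of 45101 on the array, that the platform annotation assigns to one of these symbols. Tsc22d1 was covered by 7 probe sets, Tsc22d3 by 4, and Tsc22d2 and Tsc22d4 by 2 each. Probe sets were tested where the mean intensity of any group reached 50, which held for 11 of the 15 and for 20897 of the whole array. The remaining 4 were too dim to test, and their values are given below as measured.

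The cells were primary chondrocytes, isolated from the tibiae, femurs and humeri of CD1 mouse embryos at embryonic day 15.5 and grown as a culture. They were treated with dexamethasone (DEX, a synthetic glucocorticoid) at 100 nM or with the DMSO in which it was dissolved (vehicle), for 6 or 24 hrs. Each of the 4 groups held 3 arrays, numbered 1, 2 and 4, on Affymetrix whole-genome mouse expression arrays, and a DEX and a vehicle array of the same number and time formed a pair, which gave 6 pairs. The cells of the 3 bones were not kept apart, and an array cannot tell a larger share of expressing cells from more RNA per cell.

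TSC22 domain proteins carry a leucine zipper next to a conserved TSC box, through which they pair with themselves and with each other. They come in long and short forms made from different start sites. Tsc22d3 encodes GILZ, the glucocorticoid-induced leucine zipper, known from lymphocytes as a direct target of the glucocorticoid receptor whose product binds NF-kB and AP-1 subunits and Ras and Raf. Tsc22d1 was first described as a gene switched on by TGF-beta, and the long forms of the other members are known as partners of NRBP1 and the WNK kinases, which sense cell volume and crowding.

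The glucocorticoid receptor binds DNA at paired copies of a short half-site. Because Tsc22d3 is the member whose level changed with DEX, the 250 bases before each of its 3 annotated start sites on the X chromosome are shown (RefSeq, build GRCm38.p6, minus strand, written 5′ to 3′ along the gene and numbered from the outermost start site inwards), with any receptor half-site in capitals.

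Tsc22d3 start site 1, chrX:140600523-140600772: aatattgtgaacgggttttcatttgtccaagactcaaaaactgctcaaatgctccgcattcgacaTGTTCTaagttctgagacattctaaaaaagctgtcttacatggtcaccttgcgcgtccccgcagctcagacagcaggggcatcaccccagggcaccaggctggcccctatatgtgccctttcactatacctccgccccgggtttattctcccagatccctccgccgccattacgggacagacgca
Tsc22d3 start site 2, chrX:140548572-140548821: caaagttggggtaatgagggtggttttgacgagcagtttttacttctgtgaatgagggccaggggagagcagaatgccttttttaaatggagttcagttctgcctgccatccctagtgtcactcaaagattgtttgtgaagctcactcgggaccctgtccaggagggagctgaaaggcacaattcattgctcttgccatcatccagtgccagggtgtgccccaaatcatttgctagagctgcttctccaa
Tsc22d3 start site 3, chrX:140542669-140542918: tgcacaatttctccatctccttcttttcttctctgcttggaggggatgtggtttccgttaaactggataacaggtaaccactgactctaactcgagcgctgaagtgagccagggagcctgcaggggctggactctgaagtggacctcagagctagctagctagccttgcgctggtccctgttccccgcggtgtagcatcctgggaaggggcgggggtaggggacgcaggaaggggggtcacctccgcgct

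The outermost window held 1 copy of the half-site TGTTCT, the capitals above, and the windows of start sites 2 and 3 held none on either strand. A half-site, searched on both strands and also part of any full element, was found in 16.1% of 32851 promoter windows of the same length. The full palindromic element, in which this half-site follows its own reverse complement after 3 bases of any kind, was in none of the 3 windows and in 3 of all windows. Of the 5 windows of Tsc22d1 on chromosome 14, that of start site 4 held 1 half-site. The FoxO core TGTTTAC, searched on both strands and present in 3.17% of all windows, was in none of the 8 windows of both genes. These are matches of letters in short windows, and binding was not measured here.

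DEX raised Tsc22d3 at both times and no other member passed the test. At 6 hrs, probe set 1420772_a_at, the brightest for Tsc22d3, read 82.3, 53.1 and 89.0 in vehicle cultures (replicates 1, 2 and 4) and 945.4, 897.5 and 2218.7 with DEX. At 24 hrs it read 209.4, 218.1 and 280.1 in vehicle and 1581.0, 1784.4 and 1839.2 with DEX. The lowest DEX value was above the highest vehicle value at each time, and the DEX array of replicate 4 was well above the other two DEX arrays at 6 hrs. The change was 4.08 ± 0.33 on the log2 scale at 6 hrs (SE, n = 3 per group, a 16.9-fold rise, limma adjusted p = 0.00104). At 24 hrs it was 2.89 ± 0.33, a 7.40-fold rise with a limma adjusted p = 0.00457.

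Few probe sets on the array moved this way. Of the 20897 tested, 0.225% were called at 6 hrs and 0.287% at 24 hrs, and 2 of the 11 members tested were called at each time, both of Tsc22d3. Over both times 0.747% were called, and again the same 2 of 11. Ranked by the size of the rise, 1420772_a_at was the 4th of all tested probe sets at 6 hrs and the 16th at 24 hrs. Over both times its change was 3.48 ± 0.23 (limma adjusted p = 1.00e-04, 95% confidence interval 2.97 to 4.00), higher with DEX in 6 of 6 pairs.

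The arrays were hybridized on 4 days, each with equal numbers of DEX and vehicle arrays and each with 1 time only, and the effects of day and time therefore cannot be told apart. Replicates 1 and 2 at 6 hrs, hybridized on the third day, were 4 arrays that differed from the other 8. Their first principal component scores were 83.9 to 98.5 against -53.36 to -34.12, and the log2 difference between the 3′ and 5′ control probe sets of Gapdh was 0.486 to 0.743 against -0.331 to -0.222. Within that day the DEX change of Tsc22d3 was 3.80, and in the replicate 4 pair of the fourth day it was 4.64. Within the first and second days, which held the 24 hrs arrays, it was 3.03 and 2.82. With only the 6 arrays of 6 hrs in the fit the change had a limma adjusted p = 0.147, where 0 of all 20897 tested probe sets were called. In the fit of all 12 arrays with the pairs as a block, 1420772_a_at had a limma adjusted p = 0.000804 at 6 hrs and 0.00133 at 24 hrs. The methods' own test, as run here separately on each probe set, called 0 of the 11 members at either time. It called 0 of all 20897 at either time as well, and 38 over both times.

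**Figure D1:**
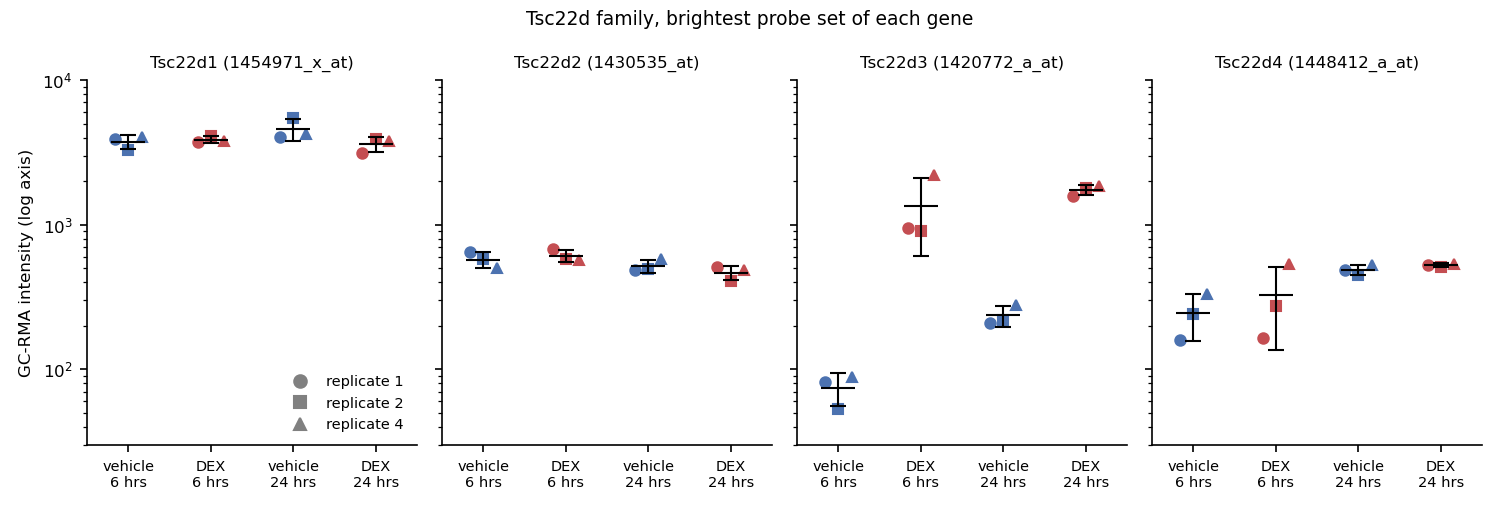
GC-RMA intensity (log axis) of the brightest probe set of each Tsc22d gene on the 12 arrays, with the symbol giving the replicate, blue for vehicle and red for DEX, and bars for the mean and SD of 3 arrays. Tsc22d3 lay between 53.1 and 280.1 in all vehicle arrays and between 897.5 and 2218.7 in all DEX arrays, whereas DEX and vehicle arrays of the same time overlapped for Tsc22d2 and Tsc22d4 at both times and for Tsc22d1 at 6 hrs.

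Of the 4 probe sets of Tsc22d3 2 were called. Probe set 1425281_a_at, which like 1420772_a_at carries the suffix for probes shared by several transcripts of 1 gene, read 55.5, 74.3 and 130.6 in vehicle and 514.9, 444.0 and 2233.0 with DEX at 6 hrs. At 24 hrs it read 175.1, 174.4 and 207.7 in vehicle and 1291.2, 2035.2 and 1749.4 with DEX. The groups did not overlap at either time. Its change was 3.30 ± 0.53 at 6 hrs (limma adjusted p = 0.0384) and 3.17 ± 0.53 at 24 hrs (limma adjusted p = 0.0399), and 3.23 ± 0.38 over both times (limma adjusted p = 0.00216). In the fit without a block these calls at single times were near the threshold. Leaving out 1 array lost the call at 6 hrs for 10 of the 12 arrays and at 24 hrs for 9 of 12. The limma adjusted p then reached 0.176 and 0.201. The call over both times remained with any 1 array left out. With the pairs as a block the limma adjusted p was 0.00302 at 6 hrs and 0.00348 at 24 hrs. That fit called 0.904% and 2.15% of all tested probe sets.

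Probe set 1425557_x_at, whose suffix marks probes that may also match other sequences, read 79.3, 94.9 and 108.6 in vehicle and 121.1, 161.7 and 212.0 with DEX at 6 hrs. At 24 hrs it read 110.0, 109.6 and 122.5 in vehicle and 126.3, 172.3 and 153.3 with DEX. All 3 DEX arrays were above all 3 vehicle arrays at each time, as for 3.04% of tested probe sets at 6 hrs and 8.45% at 24 hrs, and the distance was small. The change of 0.59 ± 0.16 over both times had a limma adjusted p = 0.206, and 0.0190 with the pairs as a block, a fit that called 3.2% of tested probe sets. The fourth, 1444365_at, was too dim to test, at 23.8 to 51.4 in vehicle and 19.4 to 45.8 with DEX, and it was lower with DEX in 6 of 6 pairs.

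The responses of the tested probe sets were then compared within pairs, with an exact permutation test that flips the signs of the 6 differences (2-sided, smallest possible p = 0.03125). This comparison was chosen after the values were seen. The test takes the 6 pairs as independent. Whether pairs of the 2 times came from the same cell isolations is not stated, and if they did the exact p is too small. The change of 1420772_a_at exceeded that of 1425557_x_at by 2.90 ± 0.52 on the log2 scale (SD, n = 6 pairs, exact p = 0.03125, 0.0625 adjusted over 2 comparisons), higher in 6 of 6 pairs. It exceeded that of 1425281_a_at by 0.25 ± 0.73, above 0 in 4 of 6 pairs (exact p = 0.5), with differences between -0.51 and 1.50. Which transcripts each probe set reads could not be checked here, because no probe sequences were used.

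**Figure D2:**
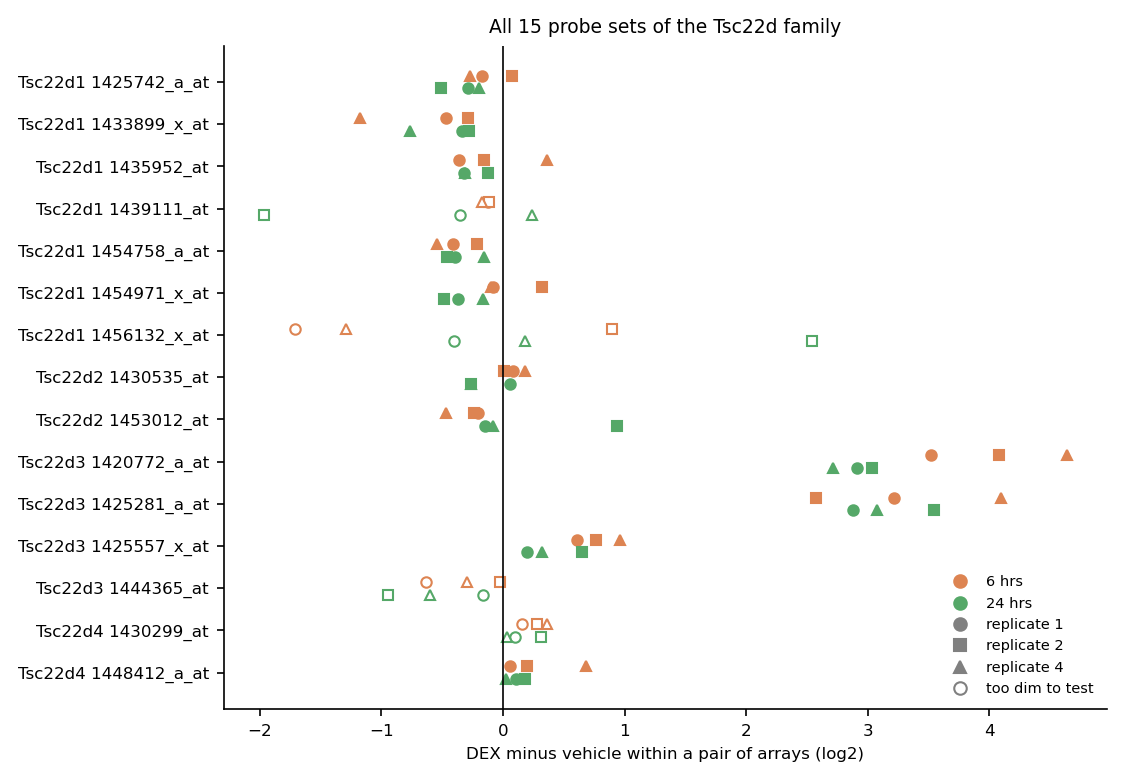
Change with DEX (log2, DEX minus vehicle) within each of the 6 pairs of arrays for all 15 probe sets of the family, in orange for 6 hrs and green for 24 hrs, with the symbol giving the replicate and open symbols marking the 4 probe sets too dim to test. Only 1420772_a_at and 1425281_a_at of Tsc22d3 lay far to the right, with every pair at 2.58 or above, and the third tested Tsc22d3 probe set lay between 0.20 and 0.97.

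In vehicle cultures Tsc22d3 was lower at 6 than at 24 hrs, at 53.1 to 89.0 against 209.4 to 280.1. The difference on 1420772_a_at was 1.68 ± 0.33 on the log2 scale, a 3.20-fold higher level at 24 hrs that missed the threshold (limma adjusted p = 0.0601, or 0.376 with hybridization day as a random block). The median of all tested probe sets shifted by 0.13 in the same direction, and with each array centred on its median the difference was 1.53. With DEX the levels of 897.5 to 2218.7 and 1581.0 to 1839.2 overlapped between the times (0.49 ± 0.33, limma adjusted p = 0.320, or 0.0200 without DEX replicate 4 at 6 hrs). The fit without that array kept only third-day arrays with DEX at 6 hrs, and it called 7152 of all 20897 tested probe sets.

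The 4 groups therefore ran, by mean intensity, from vehicle at 6 hrs (74.8 ± 19.1, SD, n = 3) to vehicle at 24 hrs (235.9 ± 38.5), DEX at 6 hrs (1353.8 ± 749.4) and DEX at 24 hrs (1734.9 ± 136.0). The last 2 did not differ beyond their spread. The DEX change was 1.19 ± 0.47 log2 units smaller at 24 than at 6 hrs on this probe set, a difference that did not pass the test (limma adjusted p = 1.00, 0.0270 before adjustment). On 1425281_a_at it was 0.13 ± 0.75 smaller. Not 1 of the 20897 probe sets was called by limma for a change in DEX response between the times (0%), against 758 at an unadjusted p under 0.05.

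Tsc22d1 was not called with DEX on any of its 5 tested probe sets. The brightest, 1454971_x_at, read 3923.0, 3291.1 and 4029.7 in vehicle and 3705.0, 4107.9 and 3774.4 with DEX at 6 hrs, where the groups overlapped. At 24 hrs it read 4051.5, 5486.3 and 4239.6 in vehicle and 3134.7, 3909.1 and 3782.9 with DEX. The 24 hrs groups did not overlap, with DEX lower, as for 10.9% of tested probe sets. DEX changed it by 0.05 ± 0.17 on the log2 scale at 6 hrs (limma adjusted p = 1.00) and by -0.34 ± 0.17 at 24 hrs (limma adjusted p = 0.867).

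No fall of Tsc22d1 passed the test. At 24 hrs all 5 tested probe sets were lower with DEX in 3 of 3 pairs, a pattern seen for 22.6% of all tested probe sets, and their changes lay between -0.46 and -0.25. These probe sets read the same arrays and may share transcripts, which was not checked. The largest change over both times was that of 1433899_x_at, at -0.55 ± 0.23 (limma adjusted p = 0.799), lower with DEX in 6 of 6 pairs, as was 1454758_a_at at -0.36 ± 0.17 (limma adjusted p = 0.928). By comparison 4.71% of tested probe sets were lower in 6 of 6 pairs. Of the 5 tested, limma called 0 at either time and over both, and so did the methods' own test. Over both times 1 had an unadjusted p under 0.05, against 5.65% of all tested probe sets. With the pairs as a block 3 of 5 did over both times and 4 of 5 at 24 hrs, against 14.7% and 17.1% of all, and limma still called 0. The 95% confidence interval of 1454971_x_at over both times ran from -0.41 to 0.12, a level between 0.751 and 1.09 times that in vehicle. Of the 5 tested, this probe set had the smallest change over both times. For 1433899_x_at, with the largest, the interval ran from -1.07 to -0.04, not adjusted for the number of probe sets. Both carry the suffix for probes that may also match other sequences.

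Among the remaining Tsc22d1 probe sets, 1425742_a_at lay between 2957.9 and 4980.7 on the 12 arrays and 1435952_at between 96.0 and 153.4. The untested 1439111_at lay between 6.0 and 48.8 and 1456132_x_at between 1.2 and 9.0. At these low intensities the changes within pairs ran from -1.97 to 0.24 on the former and from -1.71 to 2.54 on the latter. In vehicle, 1433899_x_at and 1454758_a_at were 0.83 ± 0.33 and 0.61 ± 0.24 higher at 24 than at 6 hrs (limma adjusted p = 0.135 and 0.134).

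Tsc22d2 was not called with DEX either. Its brighter probe set 1430535_at read 642.6, 576.2 and 504.3 in vehicle and 680.6, 578.6 and 572.6 with DEX at 6 hrs. At 24 hrs it read 485.7, 491.8 and 579.3 in vehicle and 506.9, 411.0 and 482.9 with DEX. The groups overlapped at both times. The change over both times was -0.03 ± 0.11 (limma adjusted p = 1.00), with a 95% confidence interval from -0.28 to 0.22. This places the level with DEX between 0.821 and 1.17 times that in vehicle. The dimmer 1453012_at was lower with DEX at 6 hrs in 3 of 3 pairs, at 54.1 to 66.1 against 73.3 to 76.0 (-0.30 ± 0.23). A separation in this direction was shared by 2.96% of tested probe sets, and the groups of 1453012_at overlapped at 24 hrs. In vehicle it was lower at 24 than at 6 hrs, at 36.2 to 65.2 (-0.63 ± 0.23, limma adjusted p = 0.125), again without overlap, as for 13.4% of tested probe sets. Limma and the methods' own test called 0 of 2 at either time and over both, and 0 had an unadjusted p under 0.05.

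Tsc22d4 was read by 1 tested probe set, 1448412_a_at. It read 159.1, 240.6 and 331.4 in vehicle and 165.3, 275.6 and 531.4 with DEX at 6 hrs, and 488.9, 450.5 and 529.1 against 525.7, 510.4 and 538.8 at 24 hrs. The DEX array was the higher in 6 of 6 pairs, as for 4.29% of tested probe sets, by 1.02- to 1.60-fold, and the groups overlapped at both times. The change over both times was 0.21 ± 0.26 (limma adjusted p = 1.00), with a 95% confidence interval from -0.37 to 0.79. Neither limma nor the methods' own test called it, and its unadjusted p was not under 0.05 in any DEX comparison. The 6 hrs value of 0.31 rested on DEX replicate 4, since it was -0.13 without that array.

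Like Tsc22d3, Tsc22d4 was lower in vehicle at 6 than at 24 hrs, with no overlap and a difference of 1.07 ± 0.37 (limma adjusted p = 0.111). Without the 4 arrays of the third day it was 0.56. Groups that did not overlap in this direction were common, at 19.6% of tested probe sets, and limma called 0 of the 11 members between the times in vehicle (0.00957% of all tested), where 6 of 11 had an unadjusted p under 0.05 against 30.5% of all tested. The second Tsc22d4 probe set, 1430299_at, was too dim to test at 25.7 to 55.3. It was higher with DEX in 6 of 6 pairs by at most 1.28-fold.

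The response of Tsc22d3 was then set against that of each other member within the 6 pairs, using the brightest probe set of each gene and the same exact permutation test. The change of Tsc22d3 exceeded that of Tsc22d1 by 3.63 ± 0.62 on the log2 scale (SD, n = 6 pairs, exact p = 0.03125). It exceeded that of Tsc22d2 by 3.52 ± 0.63 and that of Tsc22d4 by 3.28 ± 0.57, each with the same exact p. That p again takes the 6 pairs as independent, and it is too small if pairs of both times share cell isolations. The difference was above 0 in 6 of 6 pairs for each member, with the lowest at 2.69, and 0.03125 is the smallest p that 6 pairs allow, unchanged by adjustment over the 3 comparisons. With the mean of the tested probe sets of each gene in place of the brightest, the differences were 2.72, 2.47 and 2.23.

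The genes whose change was most like that of Tsc22d3, by the root mean square difference of the 6 changes within pairs over 11052 genes, were Zbtb16 (0.583), Mt1 (0.860), Foxred2 (1.02), Ctxn3 (1.16), Tent5b (1.29) and Slc39a8 (1.32). Zbtb16 encodes the zinc finger factor PLZF, Mt1 a metal-binding metallothionein and Slc39a8 a zinc and manganese transporter. Zbtb16 rose by 3.28 ± 0.20 over both times, from a mean of 29.4 in vehicle at 6 hrs and 36.5 at 24 hrs (limma adjusted p = 6.36e-05). Mt1 rose by 2.70 ± 0.29 (limma adjusted p = 0.00113), and its change, like that of Tsc22d3, was larger at 6 hrs (3.42) than at 24 hrs (1.98), which was not called for either gene. The change of Slc39a8 was 2.37 at 6 hrs and 3.28 at 24 hrs. Ctxn3 was close to 0 in vehicle, at a mean of 4.26 at 6 hrs, and Tent5b was not called (2.37 ± 0.60, limma adjusted p = 0.167). The vehicle means of Zbtb16, Foxred2 and Ctxn3 were under 50 at both times. These genes were chosen for their likeness, so that the likeness itself was not tested.

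**Figure D3:**
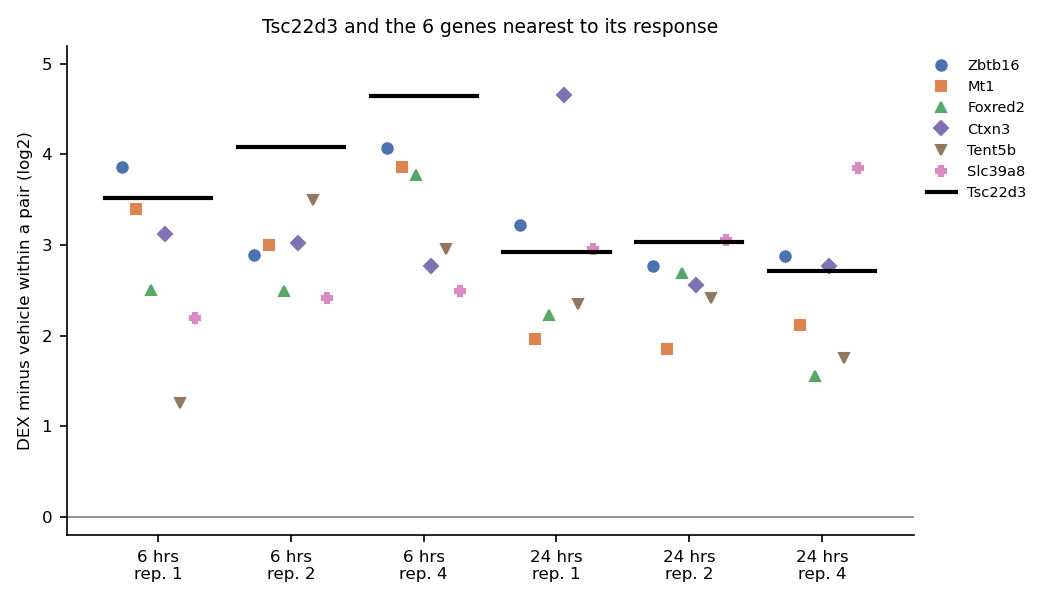
Change with DEX (log2, DEX minus vehicle) in each of the 6 pairs for Tsc22d3 (black bars, probe set 1420772_a_at) and the 6 genes nearest to it by root mean square difference. Zbtb16 was the nearest by this measure, between 2.77 and 4.07, while Tsc22d3 lay between 2.72 and 4.64.

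Tsc22d3 rose together with many established glucocorticoid-induced genes. Of the 24 genes in that list, which does not contain the family, 10 rose and 0 fell over both times, where 0.579% of all tested probe sets rose, with a median change of 0.62 against -0.02 over all tested probe sets. By adjusted p they were led by Zbtb16, described above. Klf15, a Krüppel-like factor that controls amino acid metabolism, rose by 4.68 ± 0.33 from a mean of 5.23 in vehicle at 6 hrs (limma adjusted p = 0.000110). Per1, a clock repressor, rose by 1.47 ± 0.11 (limma adjusted p = 0.000122), and Fkbp5, a co-chaperone that restrains the receptor, rose by 2.20 ± 0.19 (limma adjusted p = 0.000260). The vehicle means of Klf15 and Zbtb16 were below the minimum of 50 at both times, so the sizes of their changes rest on dim values. Without the third-day arrays 7 of the 24 rose, and 14 rose and 1 fell with the pairs as a block. This list, too, was written with earlier results of these data known, and the paper names Klf15 and Fkbp5 as DEX-responsive. The excess of rises is therefore not independent evidence.

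Of 17 targets of NF-kB and AP-1, the factors that GILZ is known to bind, 5 fell and 0 rose over both times, where 0.167% of all tested probe sets fell. Their median change was -0.86. The list was written with earlier results of these data known. The paper reports several of its genes, Il6, Il11 and Ccl2 among them, as lower with DEX. The excess of falls over the share of all probe sets is therefore not independent evidence. Il11, a cytokine, fell by 2.49 ± 0.31 on the log2 scale (limma adjusted p = 0.00310), and the chemokine Cxcl5 fell by 1.89 ± 0.24 (limma adjusted p = 0.00388). Ccl2, another chemokine, fell by 1.75 ± 0.25, with a limma adjusted p = 0.00784. Il6, an inflammatory cytokine, was called lower with the same limma adjusted p = 0.00784, but it reached the minimum of 50 only in vehicle at 24 hrs. Its means were 46.4 at 6 hrs and 52.9 at 24 hrs in vehicle, against 8.16 and 11.4 under DEX, which leaves the size of the fall uncertain. The DEX means of Il11 were also under 50, at 40.0 and 26.0. The fifth was Ptgs2, the inducible cyclooxygenase, which fell by 1.95 ± 0.33 and is named after its value was seen. Without the third-day arrays 3 of the 17 fell, by the methods' own test 2, and with the pairs as a block 11. The part of Tsc22d3 in these changes was not tested.

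No gene for a protein that GILZ is described to bind passed the test. Limma called 0 of 7 over both times (median -0.13), with 1 at an unadjusted p under 0.05 and 0 by the methods' own test, and with the pairs as a block 1 fell, the AP-1 subunit Jun (-0.61 ± 0.18, named after its value was seen). For this list and those below, the shares of all tested probe sets over both times were 5.65% at an unadjusted p under 0.05 and 3.2% called with the pairs as a block. Among the receptor and its partners 0 of 6 were called (1 at an unadjusted p under 0.05, 0 by the methods' own test). Nr3c1, the glucocorticoid receptor, averaged 580.8 in vehicle against 421.0 under DEX after 6 hrs, and 495.2 against 383.2 after 24 hrs. Its change of -0.42 ± 0.11 was negative in 6 of 6 pairs (limma adjusted p = 0.230, or 0.0485 with the pairs as a block).

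Genes of the WNK kinase and NRBP1 pathway, with which the other members are associated, were not called. Limma called 0 of 12 over both times (5 at an unadjusted p under 0.05, 0 by the methods' own test), with a median of 0.25. Of all tested probe sets 5.65% had an unadjusted p under 0.05, and their median was -0.02. Wnk1, a kinase that senses cell volume, changed by 0.38 ± 0.11 (limma adjusted p = 0.291), with the higher value under DEX in 6 of 6 pairs. Its downstream kinases Stk39 and Oxsr1 changed by 0.29 ± 0.13 and 0.44 ± 0.22 (limma adjusted p = 0.877 and 1.00), and Nrbp1 by 0.05 ± 0.15 (limma adjusted p = 1.00). With the pairs as a block 3 of the 12 rose, namely Wnk1, Wnk4 and Nrbp2, the last 2 named after their values were seen. That fit called 398 of all 20897 tested probe sets as risen. Of 6 osmotic stress genes limma called 0, with 2 at an unadjusted p under 0.05 and 0 by the methods' own test. With the pairs as a block 1 of the 6 rose and 1 fell, the kinase Sgk1 and the inositol transporter Slc5a3, both named after their values were seen.

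Pathways linked to the family by its history were also tested. Of 14 TGF-beta ligands, receptors and early targets limma called 0 (3 at an unadjusted p under 0.05, 0 by the methods' own test), with a median of -0.16, and of 12 Ras and ERK genes 0 (1 and 0), with a median of -0.04. Among 9 FoxO factors and FoxO targets 1 rose, the Krüppel-like factor Klf9 (1.55 ± 0.19, limma adjusted p = 0.00310), which also stands in the list of glucocorticoid-induced genes and was not called by the methods' own test. With the pairs as a block 1 of the TGF-beta genes fell (Tgif1) and 1 of the Ras and ERK genes rose (Dusp1). In the FoxO list 3 then rose (Klf9, Foxo3 and Sesn1) and 1 fell (Sesn3), and apart from Klf9 these genes are named after their values were seen.

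**Figure D4:**
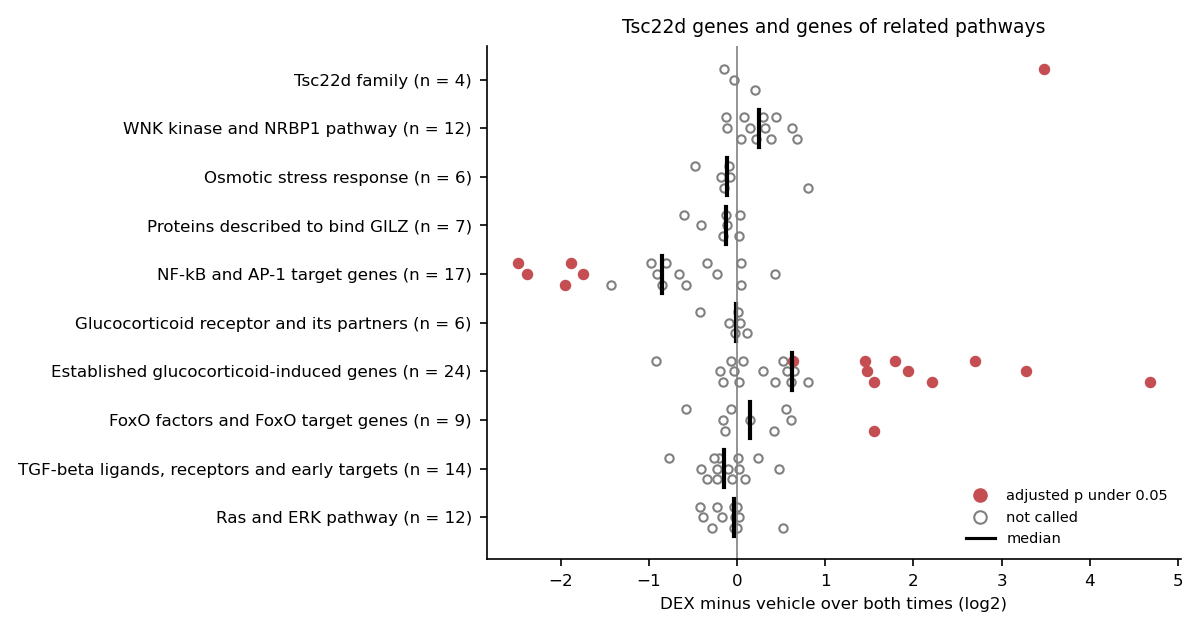
Change with DEX over both times (log2, DEX minus vehicle) for the 4 Tsc22d genes and the tested genes of 9 lists, 1 point per gene by its brightest probe set, in red where the limma adjusted p was under 0.05, with a bar at the median of each list. Tsc22d3 at 3.48 stood apart from the other 3 members, 10 of 24 glucocorticoid-induced genes rose and 5 of 17 NF-kB and AP-1 targets fell.

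Markers of the cells were read on the same arrays. All 16 chondrocyte markers had a mean of at least 50, and none was called with DEX (0 by limma over both times, 0 at an unadjusted p under 0.05, 0 by the methods' own test). Their summed intensity was 34160 to 50372 in vehicle and 39306 to 50785 with DEX at 24 hrs. All 14 tendon and perichondrial markers passed the same minimum, and limma called 0 of them over both times (3 at an unadjusted p under 0.05, 0 by the methods' own test). With the pairs as a block 1 rose, the matrix protein gene Postn (1.01 ± 0.34, limma adjusted p = 0.00136 with the block). In that fit 1 fell, the transcription factor gene Twist2 (-0.64 ± 0.20, limma adjusted p = 0.0260 with the block). The errors of these 2 genes are SE of the fit without the block. Postn and Twist2 are named after their values were seen. Tsc22d3 is known from lymphocytes and macrophages: of the lymphocyte markers 1 of 10 passed the minimum, with a summed intensity of 111 to 200 in vehicle and 99.1 to 174 with DEX over all arrays, and of the macrophage markers 7 of 15, at 844 to 1145 and 737 to 977. Ptprc and Cd3e gave no tested value, and no marker of either list was called. Of the 7 macrophage markers tested, 2 had an unadjusted p under 0.05 over both times, against 5.65% of all tested probe sets. Their median change was -0.24, against -0.02 over all tested probe sets. Of 10 endothelial markers 2 passed the minimum.

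The summed adipocyte markers were higher with DEX at 24 hrs. Their summed intensity over 6 genes was 611 to 780 in vehicle and 1590 to 2071 with DEX at that time, against 794 to 1779 and 1200 to 2335 at 6 hrs. Of 3 genes tested 1 rose, Fabp4 (2.17 ± 0.41, limma adjusted p = 0.0396), which was not called without the third-day arrays or by the methods' own test, and Adipoq was too dim to test. The muscle markers were tested for 11 of 13 genes, with 0 called by limma over both times, 0 at an unadjusted p under 0.05 and 0 by the methods' own test. At 24 hrs limma also called 0 (1 at an unadjusted p under 0.05), with a median of -0.57 against -0.03 over all tested probe sets and a sum of 702 to 2313 in vehicle against 581 to 1420 with DEX. With hybridization day as a block 1 of the 11 fell at 24 hrs, the muscle determination factor Myod1 (-0.57, limma adjusted p = 0.0316, named after its value was seen). Their part in the changes of the Tsc22d genes was not tested.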

How the data were processed

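Cells, treatments and arrays are described with the results. The authors deposited linear GC-RMA intensity values for 45101 probe sets, made in GeneSpring GX (its version is not given in the sources used), an algorithm that fits background from probe sequence. The deposited arrays did not share 1 distribution, with medians of 25.7 to 39.1, so comparisons between times also hold a shift of the arrays. The values were log2-transformed with no pseudocount, and probe sets whose mean reached 50 in any group were fitted in limma 3.58.1 (R 4.3.3) with group means over all 12 arrays, eBayes and Benjamini-Hochberg adjustment over 20897 probe sets, threshold 0.05. Errors are SE of this fit, without a block, unless named SD. The fit was tested on simulated data first. The study describes independent cell isolations, and 3 arrays per group limit the precision.

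A probe set with 1 symbol named its gene (34958, with 34754 matched to RefSeq by gene ID), 932 carried several symbols and 9211 none listed here. A gene was represented by its tested probe set with the highest mean. All member probe sets are named. From each gene list up to 4 called genes with the smallest adjusted p over both times are named, plus Nr3c1, Wnk1, Nrbp1, Stk39 and Oxsr1. Other genes are marked as named after their values were seen. Ptprc, Cd3e and Adipoq, which gave no tested value, are named outside this rule. Members and lists were chosen with earlier results of these data known.

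Arrays of the same number and time deviated together (correlation of deviations 0.632 to 0.863 at 6 hrs and 0.158 to 0.301 at 24 hrs), so they were treated as pairs, and a fit with the pair as a block is given where it changes a call over both times. Between the times the number itself was the block, although nothing states that it links them. Alternatives were the block, hybridization day, filters, 16 added before log2, quantile or median scaling and eBayes with trend. Others were arrays left out, the mean of a gene's probe sets and the unequal-variance test that the methods name. That test, called the methods' own test here, was run on each probe set with the filter given above. It called far fewer probe sets than the paper lists, and its counts are not those of the authors.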

Additional observations from a re-analysis of the deposited data

How the results depend on the processing

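Both Tsc22d3 calls (2 probe sets) at 6 hrs became 0 with the methods' own test, 0 with only the arrays compared and 0 within the third hybridization day. Of all 20897 probe sets these settings called 0, 0 and 2. The calls became 1 without the expression filter (18 of all 45101 called), and 1 to 2 with 1 array left out. At 24 hrs the 2 calls became 0 with the methods' own test (0 of all 20897) and 1 without the filter (22 of all 45101). They became 1 to 2 with 1 array left out. Both calls remained at 6 and at 24 hrs with the pairs or the hybridization day as a block. Over both times they became 1 with the methods' own test, which called 38 of all 20897. In vehicle between the times the count rose from 0 to 1 with the replicate number as a block (limma adjusted p = 0.0357 for 1420772_a_at) and to 1 without the third-day arrays (0.0414), and was 0 to 4 with 1 array left out, while hybridization day as a random block gave 0.376 for that probe set. With DEX between the times the count was 0 to 5. Of all 20897 probe sets the replicate block called 1382 between the times in vehicle. Without vehicle replicate 4 at 6 hrs 6623 were called in vehicle, and without DEX replicate 4 at 6 hrs 7152 were called with DEX. Either removal left only third-day arrays in its 6 hrs group. The replicate block changed no other call of the members than those given here and for 1425557_x_at. For comparison, the pair block called 189 probe sets of the whole array at 6 hrs against 47, 449 against 60 at 24 hrs and 668 against 156 over both times.

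Signs near 0 turned. The change of Tsc22d1 at 6 hrs (1454971_x_at) was -0.23 with the mean of its probe sets, -0.015 with quantile normalization, -0.094 without the third-day arrays, and -0.043 to 0.10 with 1 array left out. That of Tsc22d2 (1430535_at) was -0.11 at 6 hrs, 0.040 at 24 hrs and 0.15 between the times with the mean of its probe sets, 0.015 over both times and 0.037 between the times in vehicle without the third-day arrays, and -0.076 to 0.013 over both times with 1 array left out. That of Tsc22d4 with 1 array left out was -0.13 to 0.71 at 6 hrs, -0.012 to 0.41 over both times and -0.61 to 0.23 between the times. The difference in response of 1425281_a_at between the times was 0.00065 with 16 added, 0.16 with quantile normalization and -0.55 to 0.61 with 1 array left out, and the difference of 1425557_x_at between the times with DEX was -0.31 to 0.095. The cause was not tested.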
